A study of Mus musculus with 9 samples.

Results

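Mouse lungs from animals given PepNzymeSOD-CAT, an inhalable self-assembled polypeptide nanozyme named for superoxide dismutase and catalase activity, were compared with normal mouse lungs by RNA sequencing. Every gene that reached an FPKM of 1 in 3 or more of the 6 libraries entered the comparison. This kept 14110 of the 25526 gene names in the deposited table. FPKM is the number of sequenced fragments per kilobase of transcript, scaled to a fixed number of mapped fragments per library. The nanozyme group held 3 lungs (replicates 1 to 3) and the normal group 3 lungs. A pulmonary fibrosis model group of 3 further lungs entered the same fit and is quoted only for reference. The labels give 3 mice a group, whole lung tissue and poly(A) selection with oligo(dT) beads. They give no strain, age, sex, fibrosis inducer, dose, route or time, and they do not say in so many words that the nanozyme mice had received the inducer. Nanozyme samples carry sample numbers away from those of the normal group, so a separate handling batch and the treatment cannot be told apart.

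Superoxide dismutases convert superoxide to hydrogen peroxide, and catalase breaks hydrogen peroxide down to water and oxygen, so a material with both activities removes both oxidants in sequence. Injured lung draws in neutrophils and monocytes, which make oxidants through the phagocyte NADPH oxidase. In fibrosis this inflammation is followed by myofibroblast activity and by deposition of collagen and other matrix proteins, with loss or remodelling of the airway and alveolar epithelium.

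The 6 libraries summed to between 467446 and 505051 FPKM, and the read depth behind them is unknown. The defining lung transcripts were abundant in every library, with Sftpc of alveolar type 2 cells at 18319.6, 13411 and 25163 FPKM with the nanozyme and 19846, 25072 and 22612 in normal lung. Ptprc, the leukocyte antigen CD45, was at 63.5, 86.8 and 67.6 FPKM in nanozyme lung against 18.1, 22.7 and 21.98 in normal lung. A pair of libraries stood apart within their groups. Nanozyme replicate 2 lay farthest from normal lung at 781 of the 1210 genes called higher, and 2073 tested genes differed at least 2-fold from the normal mean in it, against 1434 in replicate 1 and 1282 in replicate 3. Normal replicate 3 lay between normal replicates 1 and 2 at 86.8% of the 927 genes that differed at least 1.5-fold between those replicates, with a median position 46.1% of the way from replicate 2 to replicate 1 (quartiles 34.4% and 56.5%). For each of the other 8 libraries the same share, taken against the other pair of its own group, ran from 32.1% to 67.7%. Whether normal replicate 3 is an independent mouse was not tested, and where it is not, the p-values below are too small. Counts are therefore also given without nanozyme replicate 2 and without normal replicate 3.

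Nanozyme lung differed from normal lung at 2054 genes, 1210 higher and 844 lower (limma on log2(FPKM + 1), adjusted p under 0.05 over all genes tested, which is 8.58% and 5.98% of the 14110). The change reached 2-fold on this scale at 648 of the higher and 317 of the lower genes. The higher genes included calprotectin and other neutrophil genes, complement C1q and other macrophage genes, granzyme B, and nearly every cell cycle gene examined. The lower genes included globins, inducible Hsp70, axonemal dyneins of ciliated cells and smooth muscle actin. The 3 nanozyme values did not overlap the 3 normal values at 1210 of the higher and 843 of the lower genes, and the groups did not overlap at 43.0% of all genes tested. Without nanozyme replicate 2 the counts were 1312 higher (9.30%) and 629 lower (4.46%), of which 1050 and 553 were also called with it. Without normal replicate 3 they were 621 higher (4.40%) and 169 lower (1.20%), and 577 higher and 149 lower genes were called whichever of the 6 libraries was left out. The share of higher calls depended on the scaling, at 58.9% in the fit reported, 46.3% after quantile normalization and 46.1% when the libraries were rescaled without the 100 most abundant genes.

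**Figure D1:**
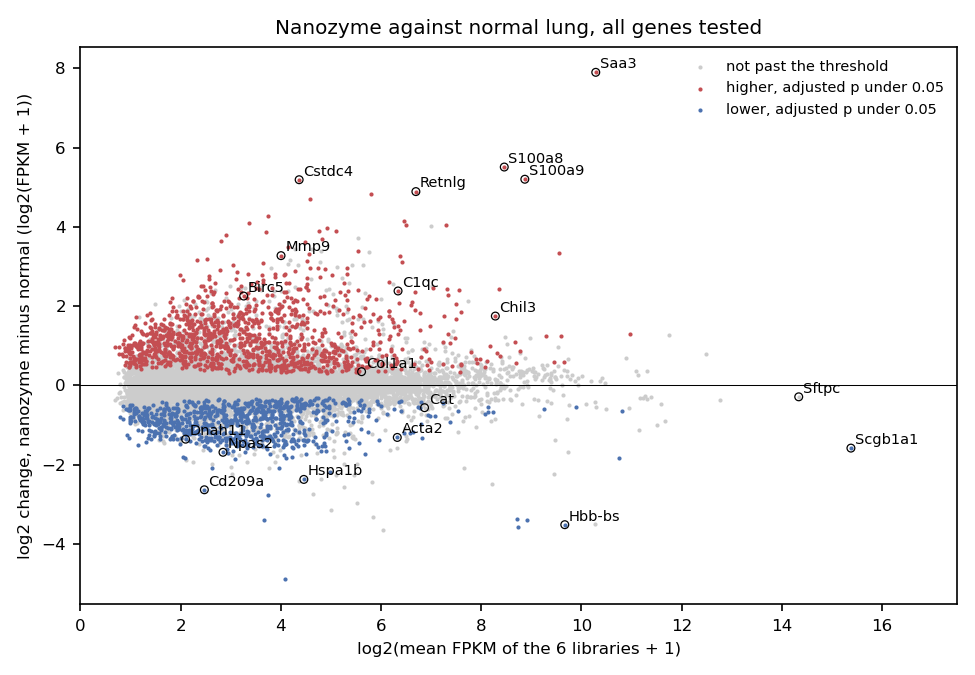
Log2 change of nanozyme against normal lung (vertical axis, log2(FPKM + 1), 3 libraries a group) for each of the 14110 genes tested, over log2(mean FPKM + 1) of the 6 libraries (horizontal axis). Red points are the 1210 genes called higher and blue points the 844 called lower by limma at an adjusted p under 0.05, with 19 genes circled and named: Saa3 sits at a log2 change of 7.90 and Hbb-bs at -3.51.

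Each group of related genes is given below by how many of its tested members passed in each direction and, for most groups, by its median log2 change, beside a median of -0.02 over all genes tested. Of all genes tested 8.58% were called higher and 5.98% lower, and a count near these shares is no result about a list. Values in the nanozyme lungs are listed in the order of replicates 1, 2 and 3. A gene called higher or lower below kept its call in each of the 15 alternative analyses that tested it, leave-one-out fits included, unless a sentence says where the call ended. Genes with a mean FPKM under 5 were not in the alternative restricted to more abundant genes. Stfa2l1, Asprv1, Acod1, Clec4e, Mmp8, Tbx21 and Egr3, named below, had passed the filter through the nanozyme libraries alone. Cd209a and Plin4 had passed it through the normal libraries alone. Alas2, Ccl17 and Myh6 reached an FPKM of 1 in fewer than 3 nanozyme libraries, so they passed only with the normal libraries counted. The calls of these genes are therefore not independent of the filter. In whole lung, more cells of a type and more RNA per cell cannot be told apart.

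**Figure D2:**
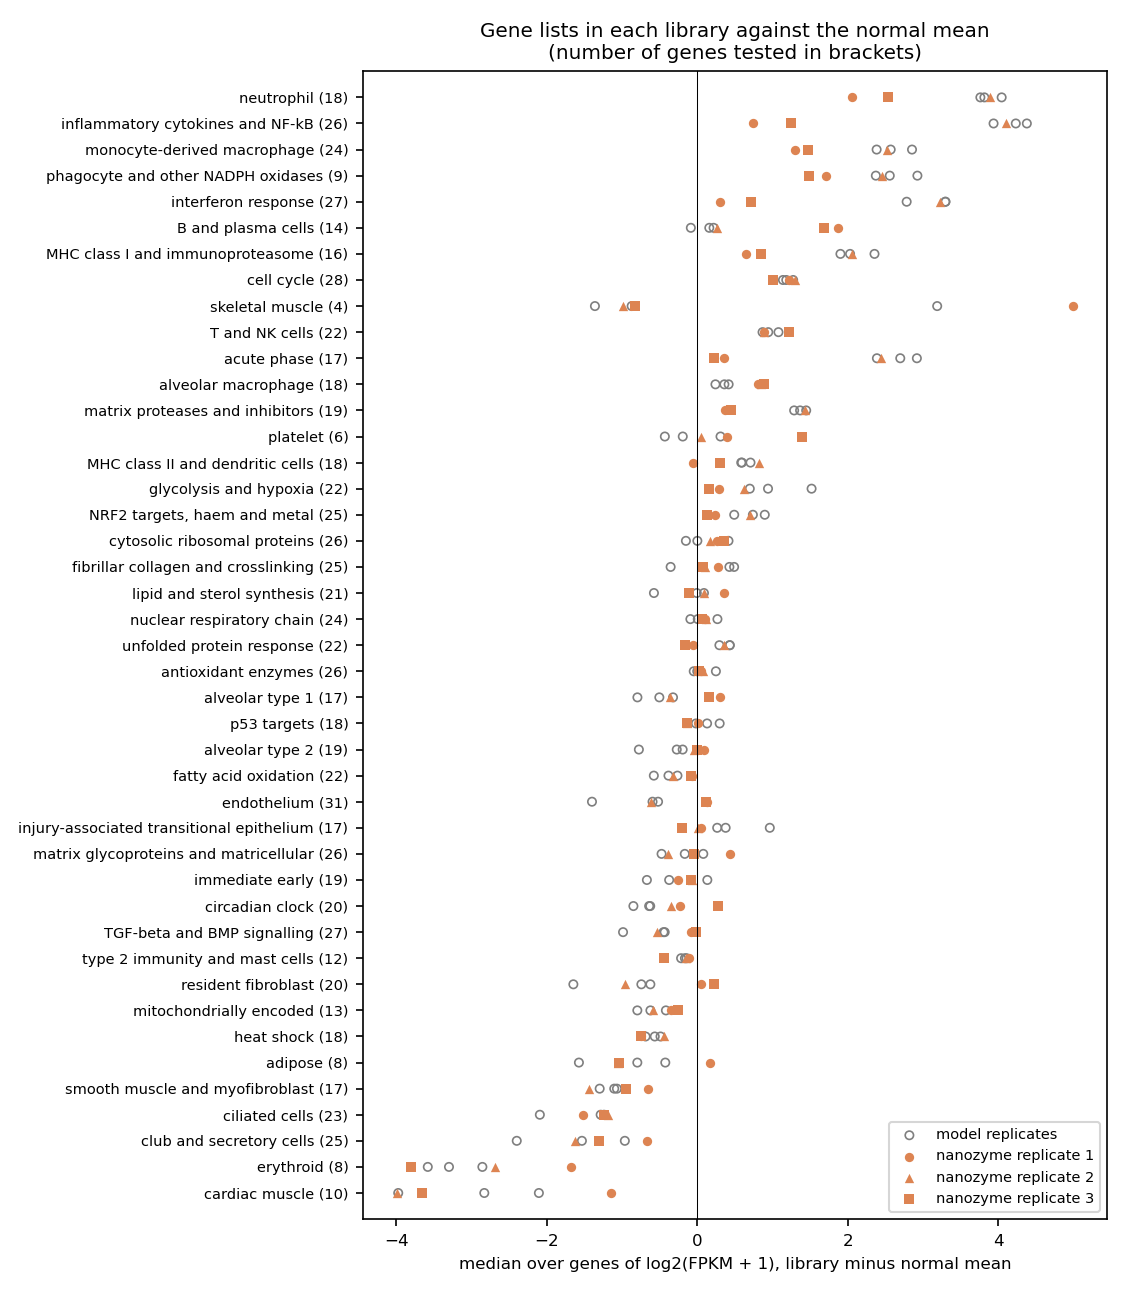
Median over the genes of each list of log2(FPKM + 1) in a library minus the normal mean (horizontal axis), for the 43 lists, with filled symbols for the 3 nanozyme libraries and open circles for the 3 model libraries. Nanozyme replicate 2 sits with the model libraries for the interferon list (3.23) and the cytokine list (4.10), while the B cell list is highest in nanozyme replicates 1 and 3 (1.88 and 1.68).

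Neutrophil genes were higher in all 3 nanozyme lungs. Of 18 tested, 13 passed as higher and 0 as lower, with a median log2 change of 2.61 (14 without nanozyme replicate 2 and 9 without normal replicate 3). The log2 change was positive at 16 of the 18. S100a8 and S100a9, the subunits of calprotectin, led the group. S100a8 was at 399.6, 1189 and 482 FPKM in the nanozyme lungs and 11.8, 12.9 and 12.6 in the normal lungs (log2 change 5.51 ± 0.36 SE, adjusted p = 0.000237). S100a9 was at 529, 1606 and 606 FPKM with the nanozyme and 16.6, 23.5 and 22.9 in normal lung (log2 change 5.20 ± 0.38 SE, adjusted p = 0.000300). No nanozyme value came near a normal value for either subunit. The resistin-like secreted protein Retnlg, made by neutrophils and their precursors, was at 119.9, 314 and 167 FPKM in nanozyme lung against 4.57, 5.15 and 6.13 in normal lung (log2 change 4.89 ± 0.30 SE, adjusted p = 0.000183). Of the mouse stefins, small inhibitors of cysteine proteases encoded side by side on chromosome 16, Stfa2l1 was at 19.3, 33.9 and 20.4 FPKM in the nanozyme lungs and 0.259, 0.287 and 0.259 in the normal lungs (log2 change 4.29, adjusted p = 0.000146). Its neighbours Cstdc4 and Cstdc5 were listed at 0 in all 3 normal libraries, so no fold is given. Cstdc4 was at 27.3, 65.5 and 24.9 FPKM and Cstdc5 at 14.2, 7.39 and 14.5 FPKM in the nanozyme lungs. Both were called higher, and both had passed the filter through the nanozyme libraries alone. These genes are close copies of each other, so the split of fragments between them is uncertain. Asprv1, a retroviral-like aspartic protease, was at 28.2, 93.4 and 14.4 FPKM with the nanozyme and 0.2799, 0.449 and 0.304 in normal lung (log2 change 4.70, adjusted p = 0.00169). In the model lungs S100a8 was at 847, 1218 and 997 FPKM, and of the nanozyme lungs replicate 2 alone fell within that range.

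The gene with the largest rise on this scale of any that the naming rule covers was Saa3, an acute-phase serum amyloid made in the lung by macrophages and epithelium. It was at 759, 6100.4 and 619 FPKM in nanozyme lung against 5.61, 4.43 and 4.86 in normal lung (log2 change 7.90 ± 0.77 SE, adjusted p = 0.000781). The lowest nanozyme lung was still far above the highest normal lung, and the model lungs stood at 6384, 13203 and 7175 FPKM. Of the 17 acute-phase genes tested, 4 rose and 0 fell, with medians of 0.35, 2.44 and 0.22 in nanozyme replicates 1 to 3. The count was 6 without nanozyme replicate 2 and 2 without normal replicate 1, 2 or 3. Complement C3, the central protein of the complement cascade, was at 734, 541 and 398 FPKM in the nanozyme lungs and 85.5, 112 and 101 in the normal lungs (log2 change 2.44 ± 0.24 SE, adjusted p = 0.000776). Cfb, complement factor B of the alternative pathway, was at 154, 647 and 106 FPKM with the nanozyme and 11.4, 13.6 and 12.2 in normal lung (log2 change 4.04, adjusted p = 0.00352). Wfdc17, a small secreted protein of myeloid cells, was at 111, 314 and 87.9 FPKM in nanozyme lung against 7.67, 8.89 and 6.92 in normal lung (log2 change 4.06, adjusted p = 0.00124). Lcn2, the iron-siderophore binding lipocalin, was at 257, 3526 and 469.6 FPKM in the nanozyme lungs and 76.7, 72.04 and 72.8 in the normal lungs (log2 change 3.33, adjusted p = 0.0278). For Lcn2 the call ended without normal replicate 1, 2 or 3 and in the fit of the 6 libraries alone, at adjusted p from 0.0641 to 0.0901. Lcn2 and Saa3 were both several-fold higher in nanozyme replicate 2 than in the other nanozyme lungs.

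Macrophage genes were higher too. Among 24 genes that mark monocyte-derived and interstitial macrophages, 18 were called higher and 0 lower (median 1.86; 16 without nanozyme replicate 2 and 14 without normal replicate 3). The 3 chains of complement C1q, which macrophages secrete, moved together. C1qa was at 135, 197 and 146 FPKM with the nanozyme and 35.8, 33.8 and 36.96 in normal lung (log2 change 2.12 ± 0.16 SE, adjusted p = 0.000300). C1qb was at 146, 222 and 143 FPKM in nanozyme lung against 31.5, 31.6 and 31.9 in normal lung (log2 change 2.36, adjusted p = 0.000349). C1qc was at 125, 161 and 119 FPKM in the nanozyme lungs and 22.7, 26.01 and 26.1 in the normal lungs (log2 change 2.38, adjusted p = 0.000183). All 3 chains were about as high in nanozyme replicates 1 and 3 as in each other, and higher in replicate 2. Adgre1, the F4/80 antigen of mature macrophages, was at 52.9, 54.6 and 32.1 FPKM with the nanozyme and 4.72, 4.98 and 4.99 in normal lung (log2 change 2.97, adjusted p = 0.000354).

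The phagocyte oxidase, the enzyme that makes superoxide, followed the same direction. Of 9 NADPH oxidase genes tested, 7 rose and 0 fell (7 without nanozyme replicate 2 or normal replicate 3). Cybb, its catalytic gp91phox subunit, was at 38.3, 139 and 35.96 FPKM in nanozyme lung against 6.01, 6.85 and 6.69 in normal lung (log2 change 2.97 ± 0.47 SE, adjusted p = 0.00532). Rac2, the small GTPase of the active complex in blood cells, was at 58.6, 78.9 and 57.3 FPKM in the nanozyme lungs and 12.6, 15.3 and 12.9 in the normal lungs (log2 change 2.16, adjusted p = 0.000398). Hvcn1, the voltage-gated proton channel that balances the charge moved by the oxidase, was at 18.8, 32.8 and 19.7 FPKM with the nanozyme and 7.21, 6.43 and 5.58 in normal lung (log2 change 1.70, adjusted p = 0.00382). For Cybb the model lungs were at 107, 175 and 179 FPKM, above nanozyme replicates 1 and 3.

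Alveolar macrophage genes were higher by a similar amount in each nanozyme lung. Of 18 tested, 10 rose and 0 fell, with a median of 0.92 (11 without nanozyme replicate 2 and 8 without normal replicate 3). The log2 change was positive at 14 of the 18. By library the median was 0.80, 0.84 and 0.89 in nanozyme replicates 1 to 3 against 0.24, 0.36 and 0.42 in the model libraries. Chil3, the chitinase-like protein Ym1, was at 408, 539 and 493 FPKM in nanozyme lung against 147, 135 and 141 in normal lung (log2 change 1.75 ± 0.15 SE, adjusted p = 0.000488). Marco, a scavenger receptor for particles and bacteria, was at 70.3, 59.4 and 25.4 FPKM in the nanozyme lungs and 5.12, 5.496 and 5.26 in the normal lungs (log2 change 2.94 ± 0.35 SE, adjusted p = 0.00167). The Marco values of nanozyme replicates 1 and 2 lay above all 3 model lungs (27.6, 19.4 and 34.1 FPKM). Ear2, an eosinophil-associated ribonuclease also made by alveolar macrophages, was at 82.5, 68.5 and 103 FPKM with the nanozyme and 34.01, 43.9 and 39.04 in normal lung (log2 change 1.09, adjusted p = 0.00397). Ear2 stood at 38.5, 37.2 and 42.8 FPKM in the model lungs. Abcg1, a cholesterol exporter needed for surfactant lipid handling by these cells, was at 16.5, 20.4 and 18.97 FPKM in nanozyme lung against 7.21, 10.997 and 9.39 in normal lung (log2 change 0.95, adjusted p = 0.004797). In the model lungs Chil3 stood at 455, 576 and 436 FPKM and Abcg1 at 17.6, 16.7 and 17.8 FPKM. For both genes the nanozyme and model values overlapped.

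**Figure D3:**
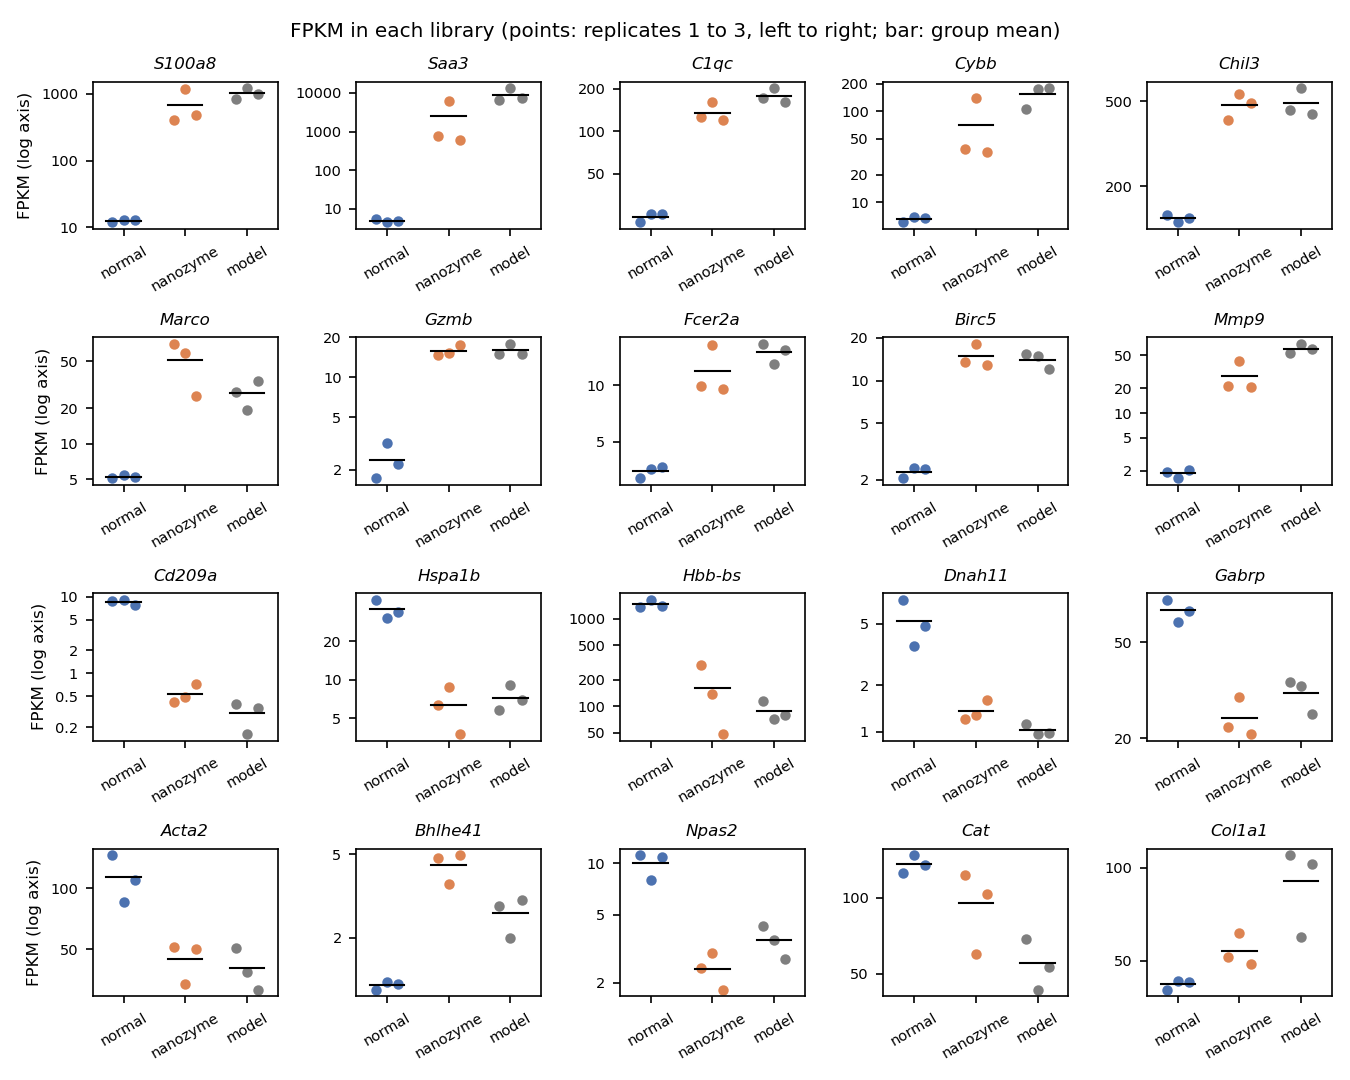
FPKM on log axes for 20 genes in each library, one panel a gene, with points for replicates 1 to 3 from left to right in the normal, nanozyme and model groups and a bar at each group mean. The nanozyme and normal points do not overlap in any panel, a separation that 43.0% of all genes tested showed. S100a8 is at 399.6, 1189 and 482 FPKM in nanozyme lung. The nanozyme and normal points lie closest together for Cat and Col1a1, which did not pass the test.

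Genes of cytotoxic lymphocytes were higher in each nanozyme lung. Of 22 T and natural killer cell genes tested, 15 were called higher and 0 lower (median 1.01; 15 without nanozyme replicate 2 and 12 without normal replicate 3). Gzmb, the granule protease granzyme B, was at 14.8, 15.1 and 17.6 FPKM in the nanozyme lungs and 1.72, 3.19 and 2.21 in the normal lungs (log2 change 2.34 ± 0.17 SE, adjusted p = 0.000253). Prf1, the pore-forming protein perforin, was at 13.5, 11.8 and 13.6 FPKM with the nanozyme and 3.102, 2.82 and 2.96 in normal lung (log2 change 1.81 ± 0.13 SE, adjusted p = 0.000253). Ncr1, the activating receptor NKp46, was at 7.94, 8.28 and 8.81 FPKM in nanozyme lung against 2.13, 2.402 and 2.39 in normal lung (log2 change 1.498, adjusted p = 0.000687). Tbx21, the transcription factor T-bet of type 1 lymphocytes, was at 3.46, 4.11 and 3.64 FPKM in the nanozyme lungs and 0.537, 0.638 and 0.938 in the normal lungs (log2 change 1.48, adjusted p = 0.000670). The nanozyme replicates differed little among themselves here, and Gzmb stood at 14.96, 17.8 and 14.95 FPKM in the model lungs.

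B cell genes split the nanozyme lungs in another way. The median over the 14 genes tested was 1.88, 0.27 and 1.68 in nanozyme replicates 1 to 3 and 0.16, -0.09 and 0.22 in the model libraries, so that here replicate 2 stood low. With all libraries 5 genes rose and 0 fell; the count of higher genes was 3 without nanozyme replicate 1 or normal replicate 2, 14 without nanozyme replicate 2, 2 without nanozyme replicate 3 or normal replicate 1 or 3 and 3 rescaled without the 100 most abundant genes. Cd22, an inhibitory receptor of B cells, was at 17.9, 8.01 and 14.5 FPKM with the nanozyme and 2.55, 3.38 and 3.59 in normal lung (log2 change 1.74 ± 0.28 SE, adjusted p = 0.00625). Fcer2a, the low-affinity IgE receptor CD23, was at 9.896, 16.4 and 9.58 FPKM in nanozyme lung against 3.199, 3.57 and 3.67 in normal lung (log2 change 1.49 ± 0.19 SE, adjusted p = 0.00244), with its highest value in replicate 2. Pou2af1, a B cell transcriptional coactivator, was at 17.8, 5.51 and 11.9 FPKM in the nanozyme lungs and 2.44, 3.40004 and 3.38 in the normal lungs (log2 change 1.53, adjusted p = 0.0218). For Pou2af1 the call ended without nanozyme replicate 3 or normal replicate 1 or 3 and in the fit of the 6 libraries alone, at adjusted p from 0.0503 to 0.0875. Jchain, the joining chain of secreted IgA and IgM made by plasma cells and picked here after its values were seen, was at 143, 3.69 and 31.1 FPKM with the nanozyme and 3.47, 6.19 and 4.61 in normal lung. It did not pass with all libraries (log2 change 2.30, adjusted p = 0.172). Without nanozyme replicate 2 its log2 change was 3.59 ± 0.63 SE (limma, adjusted p = 0.00995). The summed FPKM of the list was 484, 110.3 and 294 in the nanozyme lungs and 71.9, 96.2 and 88.6 in the normal lungs.

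Cytokine and interferon genes were high in nanozyme replicate 2 and closer to normal in replicates 1 and 3. Of 26 cytokine and NF-kB genes tested, 8 passed as higher and 0 as lower, with a median of 2.02; by library the median was 0.74, 4.10 and 1.24. The count of higher genes was 13 without nanozyme replicate 1, 16 without nanozyme replicate 2, 0 without normal replicate 1 or 3 and 2 without normal replicate 2. Ccl2, the chemokine that draws monocytes, was at 19.1, 96.4 and 10.1 FPKM in nanozyme lung against 2.15, 2.14 and 2.15 in normal lung (log2 change 3.15 ± 0.65 SE, adjusted p = 0.0163). For Ccl2 the call ended without normal replicate 1 or 3, at adjusted p from 0.0594 to 0.06004. Clec4e, the receptor Mincle, was at 6.31, 155 and 13.2 FPKM in the nanozyme lungs and 0.666, 0.607 and 0.533 in the normal lungs (log2 change 3.98, adjusted p = 0.0278). For Clec4e the call ended without normal replicate 1, 2 or 3 and in the fit of the 6 libraries alone, at adjusted p from 0.0616 to 0.0904. Acod1, the enzyme of activated macrophages that makes itaconate, was at 3.92, 303 and 20.6 FPKM with the nanozyme and 0.0816, 0.0764 and 0.191 in normal lung (log2 change 4.84, adjusted p = 0.0331). For Acod1 the call ended without nanozyme replicate 3 or normal replicate 1, 2 or 3, in the fit of the 6 libraries alone and without the filter, at adjusted p from 0.0537 to 0.106. For Acod1 and Clec4e replicate 2 was within or near the model range (248, 513 and 488 FPKM for Acod1), and replicates 1 and 3 lay between it and normal lung.

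Interferon-response genes gave 2 higher and 0 lower of 27 tested, beside 8.58% of all genes called higher, so the count is no result about the list. All 27 had a positive log2 change and the median was 1.42. By nanozyme replicate the median was 0.31, 3.23 and 0.71, against 2.79, 3.30 and 3.30 in the model libraries. The count of higher genes was 8 without nanozyme replicate 1 or 2 and 0 without nanozyme replicate 3 or normal replicate 1, 2 or 3, and it ran from 1 to 4 under the 3 other scalings. The chemokine Cxcl10, which draws CXCR3-bearing T cells, was at 11.7, 467 and 35.8 FPKM in nanozyme lung against 2.703, 2.43 and 2.06 in normal lung (log2 change 4.15 ± 1.08 SE, adjusted p = 0.0363). For Cxcl10 the call ended without nanozyme replicate 3 or normal replicate 1, 2 or 3, in the fit of the 6 libraries alone and without the filter, at adjusted p from 0.0585 to 0.112. Promoters of this list often carry the letters GAAANNGAA, the core of the interferon-stimulated response element: 15 of the 22 tested members with a RefSeq promoter (250 bases before to 50 after the gene start, either strand) hold it, against 9.76% of all 27025 promoters. Of the members with the letters 1 was called, and of the 7 without them 1 was called. A stretch from 250 to 131 bases before the Cxcl10 start is shown because Cxcl10 is the called gene of the list that holds the motif (chr5:92349020-92349139 on GRCm38.p6, minus strand, capitals mark the motif or its reverse complement, sequence from RefSeq).
Cxcl10: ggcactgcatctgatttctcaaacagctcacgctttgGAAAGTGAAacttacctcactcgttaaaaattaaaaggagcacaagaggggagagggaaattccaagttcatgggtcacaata
A match describes these letters and not a bound site.

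Class I antigen presentation moved the same way in every nanozyme lung. Of 16 genes tested 7 rose and 0 fell (median 1.22; 10 without nanozyme replicate 2, 4 without nanozyme replicate 3, 1 without normal replicate 1 or 3 and 2 without normal replicate 2). H2-D1, a class I heavy chain, was at 908, 1416 and 938 FPKM in the nanozyme lungs and 437, 461 and 445 in the normal lungs (log2 change 1.25 ± 0.21 SE, adjusted p = 0.00675). H2 genes resemble each other, so single values are uncertain. Psmb9, a catalytic subunit of the immunoproteasome, was at 34.03, 112 and 34.3 FPKM with the nanozyme and 14.9, 13.2 and 13.6 in normal lung (log2 change 1.80, adjusted p = 0.0252). For Psmb9 the call ended without normal replicate 1, 2 or 3 and in the fit of the 6 libraries alone, at adjusted p from 0.0526 to 0.0849.

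**Figure D4:**
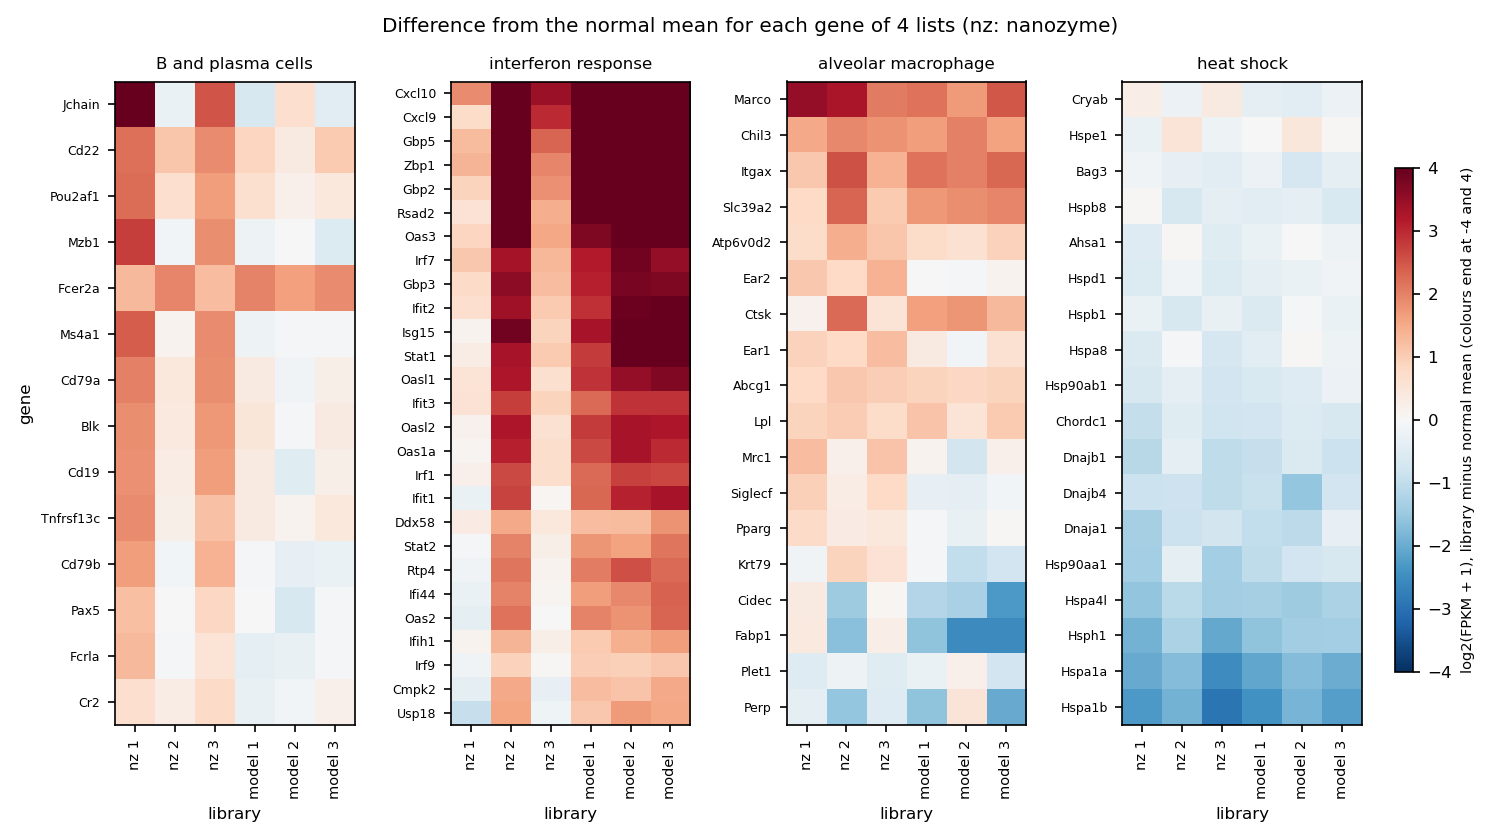
Log2(FPKM + 1) minus the normal mean for every tested gene (rows) of 4 lists in the 3 nanozyme (nz) and 3 model libraries (columns), with red for higher and blue for lower and colours ending at -4 and 4. The interferon genes are dark red in nanozyme replicate 2 and in the model libraries. The B cell genes are red in nanozyme replicates 1 and 3. Of the alveolar macrophage genes, Chil3 and Marco are red in all 6 libraries, while Ear2 is near the normal mean in the model libraries. The lower heat shock genes are blue in all 6.

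Of 18 class II and dendritic cell genes tested 2 were higher and 3 lower, with a median of 0.48. The higher count was 3 without nanozyme replicate 2, 4 without nanozyme replicate 3 and 2 without normal replicate 3, and the lower count was 1 without nanozyme replicate 1 or 3 or normal replicate 1, 2 or 3, 3 without nanozyme replicate 2 and 1 under median-of-ratios scaling. Beside the 8.58% and 5.98% of all genes called higher and lower, these counts are no result about the list, and its named members are given as single genes. Cd209a, a DC-SIGN homologue on monocyte-derived dendritic cells, was at 0.417, 0.493 and 0.718 FPKM in nanozyme lung against 8.88, 9.096 and 7.72 in normal lung (log2 change -2.63 ± 0.13 SE, adjusted p = 0.000146). Every nanozyme lung was below 1 FPKM and every normal lung above that level, and the model lungs were at 0.395, 0.162 and 0.349 FPKM. Fscn1, the actin bundler of mature migratory dendritic cells, was at 11.8, 12.8 and 10.97 FPKM in the nanozyme lungs and 5.82, 6.19 and 6.23 in the normal lungs (log2 change 0.86, adjusted p = 0.00418). H2-Oa, a chain of the class II regulator H2-O found in B cells and dendritic cells, was at 8.97, 7.73 and 9.95 FPKM with the nanozyme and 3.998, 5.25 and 4.096 in normal lung (log2 change 0.86, adjusted p = 0.00719). In the list of type 2 immunity and mast cell genes 0 of 12 were higher and 3 lower, and the lower count was 1 without nanozyme replicate 1 or normal replicate 2, 3 without nanozyme replicate 2 and 0 without nanozyme replicate 3 or normal replicate 1 or 3. Ccl17, a chemokine for CCR4-bearing T cells, was at 0.693, 6.13 and 2.73 FPKM in nanozyme lung against 10.5, 13.5 and 11.6 in normal lung (log2 change -1.85, adjusted p = 0.0304). For Ccl17 the call ended without nanozyme replicate 3 or normal replicate 1, 2 or 3, in the fit of the 6 libraries alone and with the replicate number as a block, at adjusted p from 0.0508 to 0.09501.

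Genes of DNA replication and mitosis were higher in all 3 nanozyme lungs, with no outlying replicate. Of 28 cell cycle genes tested 27 were called higher and 0 lower, and the count was 26 without nanozyme replicate 2 and 19 without normal replicate 3. The median change was 1.16, with 1.22, 1.30 and 1.01 in nanozyme replicates 1 to 3 and 1.28, 1.14 and 1.18 in the model libraries. Birc5, survivin of the chromosomal passenger complex, was at 13.5, 18.1 and 12.9 FPKM in the nanozyme lungs and 2.05, 2.42 and 2.396 in the normal lungs (log2 change 2.26 ± 0.15 SE, adjusted p = 0.000237). Mcm5, a subunit of the replicative helicase, was at 13.98, 17.4 and 12.97 FPKM with the nanozyme and 2.85, 3.25 and 3.24 in normal lung (log2 change 1.93 ± 0.13 SE, adjusted p = 0.000247). Mcm6 of the same helicase was at 18.7, 20.2 and 17.6 FPKM in nanozyme lung against 8.12, 8.45 and 8.03 in normal lung (log2 change 1.11, adjusted p = 0.000438). Aurkb, the mitotic kinase Aurora B, was at 7.39, 7.03 and 5.36 FPKM in the nanozyme lungs and 1.08, 1.0999 and 1.36 in the normal lungs (log2 change 1.79, adjusted p = 0.000509). The summed FPKM of the list was 330.3, 394 and 287 in the nanozyme lungs and 145, 146 and 147 in the normal lungs.

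Many genes of late cell cycle carry a cell cycle homology region, here read as the letters TTTGAA on either strand. Of 25 tested cell cycle genes with a RefSeq promoter of 300 bases 11 hold it, against 20.2% of all promoters of that length. Called higher were 10 of the 11 with the letters and 14 of the 14 without them. The letters and the genes shown were chosen after the values were seen. Stretches of 120 bases upstream of 2 such genes are shown on GRCm38.p6 from RefSeq because the gene list moved together. That of Mki67, a proliferation marker, runs from 155 to 36 bases before its start (chr7:135716415-135716534). That of Cdk1, the mitotic cyclin-dependent kinase, runs from 120 to 1 bases before its start (chr10:69352913-69353032). Both are on the minus strand, with the motif or its reverse complement in capitals.
Mki67: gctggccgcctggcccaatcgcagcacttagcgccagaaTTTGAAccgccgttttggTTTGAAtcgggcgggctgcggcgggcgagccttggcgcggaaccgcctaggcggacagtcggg
Cdk1: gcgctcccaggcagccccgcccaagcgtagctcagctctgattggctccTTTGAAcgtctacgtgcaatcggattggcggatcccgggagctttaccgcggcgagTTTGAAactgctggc
Mki67 itself was at 11.3, 15.3 and 8.29 FPKM with the nanozyme and 1.93, 1.71 and 1.74 in normal lung (log2 change 2.14, adjusted p = 0.000588). Cdk1 was at 5.07, 7.78 and 4.12 FPKM in nanozyme lung against 2.57, 1.62 and 1.88 in normal lung (log2 change 1.11, adjusted p = 0.0127). For Cdk1 the call ended without normal replicate 3, at adjusted p = 0.0565.

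Collagen genes were not called higher in nanozyme lung in the fit reported. Of 25 genes of fibrillar collagens and their crosslinking enzymes 0 rose and 1 fell, with a median of 0.17. The log2 change was positive at 17 of the 25, and 4 had an unadjusted p under 0.05 in either direction (limma). Median-of-ratios scaling gave 1 higher call, and the lower count was 0 without nanozyme replicate 2 or 3 or normal replicate 1, 2 or 3. Col1a1, a chain of type I collagen, was at 51.4, 61.5 and 48.7 FPKM in the nanozyme lungs and 40.3, 42.99 and 42.6 in the normal lungs (log2 change 0.35 ± 0.22 SE, adjusted p = 0.321). The model lungs stood at 109.7, 59.8 and 103 FPKM. The 3 nanozyme values of Col1a1 lay above its 3 normal values, a separation that 43.0% of all genes showed in either direction. Over the alternatives its adjusted p (limma) ran from 0.0805, in the fit of the 6 libraries alone, to 0.554. Col3a1, type III collagen, was at 149.995, 193 and 129 FPKM with the nanozyme and 137, 132 and 135 in normal lung (log2 change 0.21, adjusted p = 0.487). The gene that fell, P4ha2, a prolyl hydroxylase subunit, was at 19.1, 14.8 and 18.1 FPKM in nanozyme lung against 24.9, 24.7 and 24.3 in normal lung (log2 change -0.49, adjusted p = 0.0328). For P4ha2 the call ended without nanozyme replicate 2 or 3 or normal replicate 1, 2 or 3, at adjusted p from 0.0608 to 0.114. The matricellular phosphoprotein Spp1 was at 52.6, 45.2 and 31.6 FPKM in the nanozyme lungs and 42.9, 46.7 and 46.5 in the normal lungs (log2 change -0.10, adjusted p = 0.7803).

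Outside the proteases, other matrix genes gave higher calls near the share over all genes tested (8.58%). The glycoprotein and TGF-beta counts are therefore no result about those lists. Of 26 glycoproteins 2 rose and 0 fell (median -0.15; 1 without nanozyme replicate 1 or 2 or normal replicate 2 and 0 without normal replicate 1 or 3). Fn1, fibronectin, was at 72.9, 56.4 and 44.9 FPKM with the nanozyme and 26.1, 25.9 and 26.2 in normal lung (log2 change 1.10 ± 0.27 SE, adjusted p = 0.0307). For Fn1 the call ended without nanozyme replicate 1 or 2 or normal replicate 1, 2 or 3, at adjusted p from 0.05797 to 0.1002. Of 19 matrix proteases and inhibitors 6 rose and 0 fell (median 0.66; 6 without nanozyme replicate 2 and 2 without normal replicate 1 or 3). Mmp8, the neutrophil collagenase, was at 12.9, 41.6 and 15.8 FPKM in nanozyme lung against 0.533, 0.503 and 0.352 in normal lung (log2 change 3.88 ± 0.37 SE, adjusted p = 0.000747). Mmp9, gelatinase B, was at 21.4, 42.7 and 20.6 FPKM in the nanozyme lungs and 1.92, 1.62 and 2.04 in the normal lungs (log2 change 3.28 ± 0.25 SE, adjusted p = 0.000349). Neutrophils store both enzymes, and their part in this result was not tested. Timp1, a metalloprotease inhibitor, was at 16.1, 167 and 24.1 FPKM with the nanozyme and 4.92, 6.7003 and 6.43 in normal lung (log2 change 2.58, adjusted p = 0.0467). For Timp1 the call ended without nanozyme replicate 3 or normal replicate 1, 2 or 3, in the fit of the 6 libraries alone, at a mean FPKM of at least 5, under median-of-ratios scaling and without the filter, at adjusted p from 0.0518 to 0.147. Among 27 TGF-beta and BMP genes 2 rose and 0 fell (median -0.18; higher count 1 without nanozyme replicate 1 or 2 or normal replicate 1, 2 or 3 and 1 under each of the 3 other scalings). After quantile normalization 3 of them fell. Tgfb1, the ligand that drives matrix production, was at 44.1, 48.3 and 40.3 FPKM in nanozyme lung against 19.7, 23.4 and 22.2 in normal lung (log2 change 0.99 ± 0.12 SE, adjusted p = 0.00201).

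A share of the contractile genes was lower. Of 17 smooth muscle and myofibroblast genes 0 rose and 5 fell, with a median of -1.02, and the lower count was 2 without nanozyme replicate 2 or 3, 1 without normal replicate 1 or 3 and 8 after quantile normalization. Acta2, smooth muscle alpha-actin, was at 51.01, 33.5 and 49.9 FPKM in the nanozyme lungs and 145, 85.3 and 110.01 in the normal lungs (log2 change -1.31 ± 0.25 SE, adjusted p = 0.0121). The groups did not overlap, and the model lungs were at 50.5, 38.6 and 31.5 FPKM. Cnn1, calponin, was at 9.44, 4.76 and 6.81 FPKM with the nanozyme and 43.7, 16.4 and 25.1 in normal lung (log2 change -1.81, adjusted p = 0.0288). For Cnn1 the call ended without nanozyme replicate 2 or 3 or normal replicate 1 or 3, at adjusted p from 0.0672 to 0.103. Among 20 resident fibroblast genes 0 rose and 0 fell by limma, with 2 at an unadjusted p under 0.05, and none passed in any leave-one-out fit. Median-of-ratios scaling and quantile normalization each gave 1 lower call there. Normal replicate 1 was the highest normal library for both Acta2 and Cnn1, which was also highest in cardiac muscle genes.

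Endogenous antioxidant enzymes gave 0 higher and 1 lower calls among 26 genes tested. These include the superoxide dismutases and catalase, whose activities the nanozyme is named for. The lower count was 0 without nanozyme replicate 1 or 3 or normal replicate 1, 2 or 3, 1 without nanozyme replicate 2 and 2 after quantile normalization or rescaled without the 100 most abundant genes. Cat, catalase, was at 124, 60.1 and 104 FPKM in nanozyme lung against 126, 147 and 135 in normal lung (log2 change -0.56 ± 0.26 SE, adjusted p = 0.193). Nanozyme replicate 2 was lowest, near the model lungs (68.8, 43.2 and 53.3 FPKM), and replicates 1 and 3 lay below the lowest normal lung. Sod1, the cytosolic superoxide dismutase, was at 337, 293 and 379 FPKM in the nanozyme lungs and 419, 417 and 439 in the normal lungs (log2 change -0.35, adjusted p = 0.238). Sod3, the extracellular one, was at 60.4, 62.3 and 82.9 FPKM with the nanozyme and 43.5, 67.2 and 54.03 in normal lung (log2 change 0.32, adjusted p = 0.568). Sod2, the mitochondrial enzyme, was at 18.3, 84.4 and 20.4 FPKM in nanozyme lung against 19.2, 20.7 and 19.7 in normal lung (log2 change 0.65 ± 0.49 SE, adjusted p = 0.424), with replicate 2 alone raised toward the model values of 96.4, 119 and 141 FPKM. Gclc, which catalyses the rate-limiting step of glutathione synthesis, was at 65.4, 67.3 and 48.02 FPKM in the nanozyme lungs and 98.4, 82.5 and 89.8 in the normal lungs (log2 change -0.59, adjusted p = 0.0332). For Gclc the call ended without nanozyme replicate 1 or 3 or normal replicate 1, 2 or 3, in the fit of the 6 libraries alone and with the replicate number as a block, at adjusted p from 0.0503 to 0.131.

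Among 25 NRF2 targets and haem and metal genes 4 rose and 0 fell (median 0.39; 2 without nanozyme replicate 1, 3 without nanozyme replicate 2 and 1 without normal replicate 1 or 3). G6pdx, which supplies NADPH through the pentose phosphate pathway, was at 30.5, 37.9 and 25.3 FPKM with the nanozyme and 17.1, 15.02 and 15.5 in normal lung (log2 change 0.92 ± 0.15 SE, adjusted p = 0.00647). Hmox1, the inducible haem oxygenase, was at 46.1, 104 and 37.1 FPKM in nanozyme lung against 19.1, 23.6 and 20.98 in normal lung (log2 change 1.37, adjusted p = 0.0371). For Hmox1 the call ended without nanozyme replicate 1 or normal replicate 1, 2 or 3, in the fit of the 6 libraries alone and without the filter, at adjusted p from 0.0563 to 0.127. Nqo1, a quinone reductase and a classical NRF2 target, was at 5.96, 2.54 and 3.27 FPKM in the nanozyme lungs and 5.29, 2.67 and 3.69 in the normal lungs (log2 change -0.02, adjusted p = 0.97996). Its groups overlapped.

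Airway epithelial genes were lower. All 23 ciliated cell genes tested had a negative log2 change and 13 were called lower, 0 higher, with a median of -1.32 and -1.52, -1.19 and -1.25 in nanozyme replicates 1 to 3. The lower count was 7 without nanozyme replicate 1, 14 without nanozyme replicate 2, 8 without nanozyme replicate 3 and 5 without normal replicate 1 or 3. Dnah11, a heavy chain of outer-arm axonemal dynein, was at 1.21, 1.29 and 1.596 FPKM with the nanozyme and 7.16, 3.62 and 4.84 in normal lung (log2 change -1.36 ± 0.20 SE, adjusted p = 0.00382). Dnah9, another outer-arm heavy chain, was at 2.38, 2.18 and 2.53 FPKM in nanozyme lung against 12.2, 5.701 and 8.95 in normal lung (log2 change -1.51, adjusted p = 0.00727). Hydin, of the central pair of the axoneme, was at 1.84, 1.61 and 1.81 FPKM in the nanozyme lungs and 9.75, 4.62 and 7.33 in the normal lungs (log2 change -1.53, adjusted p = 0.00617). Spag17, also of the central pair, was at 1.65, 2.001 and 1.98 FPKM with the nanozyme and 8.301, 4.57 and 6.48 in normal lung (log2 change -1.34, adjusted p = 0.00479). The summed FPKM of the list was 960.4, 875 and 1086 in the nanozyme lungs and 2222, 1539 and 1850.3 in the normal lungs, so normal replicates 1 and 2 differed from each other as well.

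Club and secretory cell genes gave 0 higher and 7 lower of 25 tested (median -1.39; lower count 5 without nanozyme replicate 2 and 3 without nanozyme replicate 3 or normal replicate 1, 2 or 3). Gabrp, a GABA-A receptor subunit of airway epithelium, was at 22.3, 29.6 and 20.9 FPKM in nanozyme lung against 75.1, 60.6 and 67.7 in normal lung (log2 change -1.46 ± 0.17 SE, adjusted p = 0.00148). Aldh1a7, an aldehyde dehydrogenase, was at 61.1, 49.4 and 60.3 FPKM in the nanozyme lungs and 122, 141 and 134 in the normal lungs (log2 change -1.21, adjusted p = 0.00163). Cyp2s1, a cytochrome P450, was at 54.4, 38.02 and 66.6 FPKM with the nanozyme and 126, 115 and 119.8 in normal lung (log2 change -1.20, adjusted p = 0.00407). Cyp2f2, the main P450 of club cells, was at 1245, 377 and 853 FPKM in nanozyme lung against 2788, 2458 and 2579 in normal lung (log2 change -1.82, adjusted p = 0.0313). For Cyp2f2 the call ended without nanozyme replicate 3 or normal replicate 1, 2 or 3 and without the filter, at adjusted p from 0.0537 to 0.108. The club cell secretory protein Scgb1a1, which the naming rule did not pick, was at 21812, 17044 and 25749.6 FPKM in the nanozyme lungs and 56368, 71115 and 64126 in the normal lungs (log2 change -1.58, adjusted p = 0.0378). Its call ended in each of the 6 leave-one-out fits, without the filter and with the replicate number as a block, at adjusted p from 0.0659 to 0.526. As the most abundant gene in each of the 6 libraries it takes the same value in them after quantile normalization and cannot be tested there.

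Higher and lower calls among alveolar genes were no more frequent than over all genes tested (8.58% and 5.98%). They are no result about these lists. Of 19 alveolar type 2 genes 1 rose and 0 fell (median -0.04), and of 17 alveolar type 1 genes 1 rose and 0 fell (median 0.02). The type 2 gene that rose was Ctsh, cathepsin H of lamellar bodies and also of macrophages, at 229, 344 and 286 FPKM with the nanozyme and 163, 156 and 154 in normal lung (log2 change 0.84, adjusted p = 0.0149). For Ctsh the call ended without normal replicate 1 or 3, at adjusted p from 0.0555 to 0.0659. The type 1 gene was Pdpn, podoplanin, at 84.2, 119 and 84.6 FPKM in nanozyme lung against 64.3, 54.6 and 57.9 in normal lung (log2 change 0.68, adjusted p = 0.0208). For Pdpn the call ended without normal replicate 1, 2 or 3, at adjusted p from 0.0534 to 0.0814. Among 17 genes of injury-associated transitional epithelium 2 rose and 1 fell, with a median of -0.15. The higher count was 1 without nanozyme replicate 1 or normal replicate 2, 3 without nanozyme replicate 2, 0 without normal replicate 1 or 3 and 1 after quantile normalization or rescaled without the 100 most abundant genes, and the lower count was 2 without nanozyme replicate 2, 0 without normal replicate 3 and 2 after quantile normalization or rescaled without the 100 most abundant genes. Areg, the EGF receptor ligand amphiregulin, was at 3.79, 5.58 and 4.45 FPKM in the nanozyme lungs and 8.601, 7.33 and 9.03 in the normal lungs (log2 change -0.74, adjusted p = 0.0107). For Areg the call ended without normal replicate 3, at adjusted p = 0.0562. Hbegf, another ligand of that receptor, was at 25.3, 35.8 and 22.6 FPKM with the nanozyme and 13.03, 16.4 and 13.7 in normal lung (log2 change 0.89, adjusted p = 0.0168). For Hbegf the call ended without normal replicate 1 or 3, at adjusted p from 0.0698 to 0.0733. Itgb6, the integrin chain that activates TGF-beta, was at 15.7, 18.04 and 12.6 FPKM in nanozyme lung against 9.54, 11.4 and 10.4 in normal lung (log2 change 0.51, adjusted p = 0.0495). For Itgb6 the call ended without nanozyme replicate 1 or 2 or normal replicate 1, 2 or 3, in the fit of the 6 libraries alone, at a mean FPKM of at least 5, under median-of-ratios scaling, without the filter, under quantile normalization, with the replicate number as a block and rescaled without the 100 most abundant genes, at adjusted p from 0.0517 to 0.171. None of 31 endothelial genes passed in either direction (limma), in the fit reported or in any leave-one-out fit, and 2 had an unadjusted p under 0.05. Cldn5, a tight junction claudin of endothelium, was at 314, 202 and 283 FPKM in the nanozyme lungs and 239, 301 and 272 in the normal lungs (log2 change -0.04, adjusted p = 0.951).

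Globins were among the genes with the largest falls. Of 8 erythroid genes 6 fell and 0 rose (median -2.73; lower count 5 without nanozyme replicate 2 or normal replicate 3). Hbb-bs, a beta-globin at chr7:103826534-103828096 on GRCm38, was at 299.6, 139.5 and 48.2 FPKM with the nanozyme and 1347, 1652 and 1393 in normal lung (log2 change -3.51 ± 0.55 SE, adjusted p = 0.00516). Hba-a2, an alpha-globin at chr11:32296489-32297298, was at 172, 95.2 and 32.1 FPKM in nanozyme lung against 792, 934 and 870.04 in normal lung (log2 change -3.40 ± 0.53 SE, adjusted p = 0.00491). The copy Hba-a1 fell by 3.38 and the copy Hbb-bt fell by 3.57 on the log2 scale, though fragments from near-identical copies cannot be assigned with certainty. Alas2, the erythroid enzyme that starts haem synthesis, was at 3.51, 1.06 and 0.297 FPKM in the nanozyme lungs and 8.16, 9.84 and 8.38 in the normal lungs (log2 change -2.09, adjusted p = 0.0115). The model lungs were also low, at 115, 70.9 and 78.8 FPKM for Hbb-bs, and the amount of blood left in the tissue was not recorded in the labels. Pf4, a platelet chemokine, went the other way, at 64.4, 33.3 and 55.5 FPKM with the nanozyme and 20.01, 19.1 and 22.9 in normal lung (log2 change 1.22, adjusted p = 0.00908), as the single call among 6 platelet genes. Pf4 is also a member of the list of monocyte-derived macrophage genes, which rose.

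Muscle genes varied between lungs of the same group. Of 10 cardiac muscle genes 3 fell and 0 rose (median -2.74), with a lower count of 8 without nanozyme replicate 1, 0 without nanozyme replicate 2 or 3 or normal replicate 1 or 3 and 5 without normal replicate 2. Their summed FPKM was 209, 19.2 and 26.9 in the nanozyme lungs and 888, 148 and 489 in the normal lungs. Myh6, the atrial myosin heavy chain, was at 5.02, 0.0849 and 0.1403 FPKM in nanozyme lung against 33.5, 11.3 and 19.8 in normal lung (log2 change -3.41, adjusted p = 0.0232). For Myh6 the call ended without nanozyme replicate 2 or 3 or normal replicate 1 or 3, at adjusted p from 0.0561 to 0.0938. Cardiac muscle cells line the pulmonary veins of mice, and how much of that tissue each sample held was not recorded in the labels. The 4 skeletal muscle genes summed to 626, 3.78 and 5.04 FPKM in the nanozyme lungs and 22.9, 3.94 and 12.4 in the normal lungs. Among these 6 libraries they were high in nanozyme replicate 1, and the model lungs summed to 3.82, 159.7 and 2.502 FPKM. None passed (limma, 0 at an unadjusted p under 0.05). In the adipose list 1 of 8 fell. It was Plin4, a lipid droplet protein, at 0.641, 0.358 and 0.4301 FPKM in the nanozyme lungs and 2.03, 1.27 and 1.42 in the normal lungs (log2 change -0.80, adjusted p = 0.0132). For Plin4 the call ended without normal replicate 1 or 3, at adjusted p from 0.0504 to 0.0559.

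Heat shock chaperone genes were lower in the nanozyme lungs. Of 18 tested, which include the mitochondrial chaperones Hspd1 and Hspe1, 9 fell and 0 rose, with a median of -0.67. The log2 change was positive at 2 of the 18. The lower count was 13 without nanozyme replicate 2, 5 without normal replicate 1 and 4 without normal replicate 3. Hspa1b, an inducible Hsp70, was at 6.34, 8.86 and 3.78 FPKM with the nanozyme and 42.4, 30.4 and 34.3 in normal lung (log2 change -2.37 ± 0.27 SE, adjusted p = 0.00138). Hspa1a, its near-identical neighbour, was at 5.11, 6.53 and 3.35 FPKM in nanozyme lung against 27.2, 20.2 and 24.6 in normal lung (log2 change -2.09 ± 0.21 SE, adjusted p = 0.000875). Hsph1, an Hsp70 exchange factor of the Hsp110 family, was at 20.2, 31.7 and 18.02 FPKM in the nanozyme lungs and 95.01, 67.1 and 71.7 in the normal lungs (log2 change -1.72, adjusted p = 0.00199). Its relative Hspa4l was at 7.997, 11.5 and 9.11 FPKM with the nanozyme and 32.8, 19.3 and 26.6 in normal lung (log2 change -1.35, adjusted p = 0.00368). The model lungs were low as well, at 5.796, 9.09 and 6.97 FPKM for Hspa1b. The summed FPKM of the list was 1719, 2248 and 1675 in the nanozyme lungs and 2999, 2569 and 2748 in the normal lungs, lower in nanozyme replicates 1 and 3 than in replicate 2.

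Heat shock genes share a promoter element, searched here as GAANNTTC, which reads the same on both strands. Among the 14 tested members with a RefSeq promoter of 300 bases 10 hold these letters, against 9.04% of all such promoters. Of the members with the letters 5 fell, as did 3 of the 4 without them. The letters were picked after the values were seen. Stretches from 160 to 41 bases before the starts of Hspa1a (chr17:34972197-34972316) and Hspa1b (chr17:34959279-34959398), minus strand on GRCm38.p6, are identical to each other and are shown once because both genes fell most in the list. Capitals mark the motif, and the 250 upstream bases of the pair are 98.8% identical.
Hspa1a: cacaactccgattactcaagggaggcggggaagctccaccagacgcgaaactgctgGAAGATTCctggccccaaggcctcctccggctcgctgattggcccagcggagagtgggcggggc
The presence of the letters describes the sequence alone.

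Clock genes were called in both directions. Of 20 tested 3 rose and 3 fell, with a median of -0.17; the higher count was 6 without nanozyme replicate 2 and 1 without normal replicate 1, 2 or 3, and the lower count was 5 without nanozyme replicate 2 and 2 without normal replicate 3. Npas2 and Arntl, the paired activators of the clock, fell. Npas2 was at 2.42, 2.99 and 1.82 FPKM in nanozyme lung against 11.1, 8.002 and 10.8 in normal lung (log2 change -1.69 ± 0.19 SE, adjusted p = 0.00138). Arntl was at 7.12, 4.82 and 2.47 FPKM in the nanozyme lungs and 14.3, 15.1 and 15.7 in the normal lungs (log2 change -1.55 ± 0.28 SE, adjusted p = 0.00975). Bhlhe41, the repressor DEC2, rose and was at 4.79, 3.61 and 4.93 FPKM with the nanozyme and 1.13, 1.22 and 1.203 in normal lung (log2 change 1.31 ± 0.15 SE, adjusted p = 0.00157). The time of day at which lungs were taken is not in the labels, so a difference in sampling time between the groups cannot be told apart from treatment. The promoter of Bhlhe41 holds the clock E-box CACGTG, as do those of 5 of 17 tested clock genes with a RefSeq promoter and 8.09% of all promoters. Of the clock genes with the box 1 was called, against 4 of the 12 without it. The stretch from 210 to 91 bases before the Bhlhe41 start is shown as that of the called gene with the box (chr6:145865511-145865630, minus strand, GRCm38.p6, E-box in capitals).
Bhlhe41: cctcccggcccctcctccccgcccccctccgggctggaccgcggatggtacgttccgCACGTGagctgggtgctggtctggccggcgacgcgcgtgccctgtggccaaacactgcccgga

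Housekeeping and metabolic lists held few calls, too few to be read as a result about any of them. Of 22 glycolysis and hypoxia genes 2 rose and 0 fell (median 0.40), and the higher count was 2 without nanozyme replicate 2, 0 without normal replicate 1, 2 or 3 and 4 after quantile normalization. Of 22 fatty acid oxidation genes 0 rose and 2 fell (median -0.13), and the lower count was 1 without nanozyme replicate 1 or 2 or normal replicate 1, 2 or 3. Acot1, a cytosolic acyl-CoA thioesterase, was at 14.1, 11.3 and 19.03 FPKM in nanozyme lung against 42.5, 39.2 and 42.9 in normal lung (log2 change -1.46 ± 0.21 SE, adjusted p = 0.00362). All 13 genes of the mitochondrial genome had nanozyme values below the normal range. Over all genes tested the groups did not overlap at 43.0%, in either direction. Of the 13 genes 0 rose and 2 fell, with a median of -0.42. That lower count was 1 without nanozyme replicate 1, 2 or 3 or normal replicate 2, 0 without normal replicate 1 or 3, 1 under median-of-ratios scaling, 0 after quantile normalization and 5 rescaled without the 100 most abundant genes. Nuclear-encoded respiratory chain genes gave 0 higher and 0 lower calls of 24 (limma, 0 at an unadjusted p under 0.05). Of 26 ribosomal protein genes 1 rose and 0 fell (median 0.26), and the higher count was 0 without nanozyme replicate 1 or 3 or normal replicate 1, 2 or 3, 1 without nanozyme replicate 2 and 2 after quantile normalization.

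Among 21 lipid and sterol synthesis genes 1 rose and 0 fell (median 0.09), and the higher count was 2 without nanozyme replicate 2 or 3 and 0 without normal replicate 1 or 3. The call was Mvd, a mevalonate pathway decarboxylase, at 16.7, 25.9 and 12.6 FPKM in the nanozyme lungs and 8.04, 9.19 and 8.36 in the normal lungs (log2 change 0.97, adjusted p = 0.0215). For Mvd the call ended without normal replicate 1 or 3 and in the fit of the 6 libraries alone, at adjusted p from 0.0518 to 0.0833. Among 22 genes of the unfolded protein response 1 rose and 0 fell (median 0.07), and the higher count was 0 without nanozyme replicate 1 or 2 or normal replicate 1, 2 or 3, 2 without nanozyme replicate 3 and 0 under each of the 3 other scalings. It was Xbp1, a transcription factor of that response, at 126, 129.9 and 109 FPKM with the nanozyme and 87.6, 94.1 and 90.8 in normal lung (log2 change 0.41, adjusted p = 0.0392). For Xbp1 the call ended without nanozyme replicate 1 or 2 or normal replicate 1, 2 or 3, under median-of-ratios scaling, under quantile normalization and rescaled without the 100 most abundant genes, at adjusted p from 0.0597 to 0.148. Among 19 immediate early genes 3 rose and 0 fell (median -0.16), and the higher count was 0 without nanozyme replicate 1 or normal replicate 1, 2 or 3, 1 without nanozyme replicate 2 or 3, 1 after quantile normalization and 0 rescaled without the 100 most abundant genes. The transcription factor Egr3 was at 1.51, 1.65 and 1.31 FPKM in nanozyme lung against 0.705, 0.797 and 0.887 in normal lung (log2 change 0.47, adjusted p = 0.0376). For Egr3 the call ended without nanozyme replicate 1, 2 or 3 or normal replicate 1, 2 or 3, in the fit of the 6 libraries alone, under quantile normalization, with the replicate number as a block and rescaled without the 100 most abundant genes, at adjusted p from 0.0511 to 0.138. Myc, a transcription factor of growth, was at 6.31, 4.19 and 4.45 FPKM in the nanozyme lungs and 2.97, 2.35 and 2.95 in the normal lungs (log2 change 0.66, adjusted p = 0.04499). For Myc the call ended without nanozyme replicate 1 or 3 or normal replicate 1, 2 or 3, without the filter and rescaled without the 100 most abundant genes, at adjusted p from 0.0703 to 0.123. Ier3, a stress-induced survival factor, was at 154, 181 and 126 FPKM with the nanozyme and 92.1, 110.1 and 100.04 in normal lung (log2 change 0.59, adjusted p = 0.0415). For Ier3 the call ended without nanozyme replicate 1 or 2 or normal replicate 1, 2 or 3, in the fit of the 6 libraries alone, without the filter, under quantile normalization, with the replicate number as a block and rescaled without the 100 most abundant genes, at adjusted p from 0.0511 to 0.154. Of 18 p53 targets 2 rose and 1 fell (median -0.04), and the higher count was 2 without nanozyme replicate 2 and 1 without normal replicate 1 or 3. Aen, an apoptosis-enhancing nuclease of that list, was at 6.69, 6.23 and 6.56 FPKM in nanozyme lung against 9.97, 10.6 and 10.7 in normal lung (log2 change -0.61 ± 0.09 SE, adjusted p = 0.00391).

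Against the model lungs no gene passed in the nanozyme lungs: limma called 0 of 14110 (0%), with 3094 at an unadjusted p under 0.05 and a smallest adjusted p of 0.123. The nanozyme and model comparisons share the 3 normal lungs, so their values are only set side by side. Over the 1210 genes called higher in nanozyme lung the median difference from the normal mean was 0.99, 1.14 and 0.94 in nanozyme replicates 1 to 3 and 1.16, 1.14 and 1.18 in model replicates 1 to 3. Over the 844 lower genes it was -0.87, -0.90 and -0.78 and -0.91, -1.03 and -1.24. Over all genes tested, 1997, 3136 and 2851 differed at least 2-fold from the normal mean in the model libraries, where nanozyme replicates 1 to 3 had 1434, 2073 and 1282.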

How the data were processed

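Lung RNA from 3 mice a group was sequenced as poly(A)-selected libraries, per the labels' protocols. The authors deposited 1 table of FPKM values for 9 libraries. HISAT2 and the build GRCm38 are named in the submitters' processing notes, without versions; the annotation, the counting tool and its strand setting are not given in the sources used here. FPKM holds no read depth, and the values could not be turned back into whole reads.

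Genes that reached an FPKM of 1 in 3 or more of the 6 nanozyme and normal libraries were tested with limma 3.58.1 in R 4.3.3 on log2(FPKM + 1), with 1 coefficient a group over all 9 libraries, a trend of the variance on mean level, and p-values adjusted by Benjamini-Hochberg over the 14110 genes (threshold 0.05). A log2 change on this scale understates changes of low genes. On simulated data of this layout the fit recovered 68% of genes shifted by a log2 change of 1 and 92% of those shifted by 2. The 200 shifted genes had a mean log2(FPKM + 1) above 1, and the noise was independent with the same spread in every library. These rates need not hold for the data, where single libraries stood apart. The fit gave 5 false calls among those of the 14110 genes that were not shifted. A list with few or no calls can therefore hold changes that were missed. The p-values rest on the spread within groups over all 9 libraries, model lungs included, moderated by that trend. They take normal replicate 3 as a separate mouse, which was not tested.

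The comparison, the 43 gene lists and the naming rule were chosen with earlier results of these data known. Genes were named by rule: the 12 higher and 12 lower called genes of largest change, 8 and 8 without nanozyme replicate 2, 13 oxidant and fibrosis genes, and up to 4 called members of each list with the smallest adjusted p (or the 2 most abundant where none passed), 136 in all. The text describes most of these, and 1 is not reported here. Of 902 list entries 895 matched a name in the table and 827 were tested. Gene positions are from GENCODE vM21 (GRCm38) and promoter sequences from RefSeq. Alternatives changed the pseudocount, the filter, the scaling, the libraries fitted, sample weights and a replicate block, and left out each library in turn.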

Additional observations from a re-analysis of the deposited data

How the results depend on the processing

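None of the 120 named genes that passed the test changed sign under any alternative. Of the 16 that did not pass, 9 changed sign under at least 1, among them Cldn5, Nqo1, Sod2 and Spp1. The counts of 1210 higher and 844 lower genes became 733 and 497 among genes of mean FPKM of at least 5, where fewer genes were tested, and 2492 and 2030 with sample weights, which gave normal replicate 3 a weight of 7.07 and the other 8 libraries weights from 0.223 to 1.45. Quantile normalization gave 1183 higher and 1370 lower genes; the cause was not tested. Leaving out each library in turn gave 621 to 1312 higher genes and 169 to 743 lower genes, with 639 and 196 without normal replicate 1, 621 and 169 without normal replicate 3, 462 lower without nanozyme replicate 1 and 508 lower without nanozyme replicate 3. The other settings stayed within 1.5 times both counts. Of the 120 named genes that were called, 65 kept the call in all 6 leave-one-out fits, and 55 lost it without normal replicate 3. The replicate numbers are not stated to pair the mice. Same-numbered nanozyme and normal libraries showed little shared deviation (correlations 0.0515, -0.0359 and -0.0192), which cannot exclude a pairing. With the replicate block the counts were 1114 and 654. Depth is unknown, so the precision of low values cannot be given.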
